A study of Mus musculus with 4 samples.

Results

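The 8 genes described here, Msr1, Marco, Cd36, Scarb1, Scarb2, Stab1, Cd163 and Mrc1, encode scavenger receptors of macrophages. They were chosen by name as receptors of this kind, from 55487 genes in the count table, and all 8 were found in it; 7 of them passed the filter on low counts and were tested among 13496 genes. Gene expression was measured by poly(A) RNA sequencing of myeloid cells sorted from perfused mouse livers as CD45+, CD11b+, CD3- and CD11c-. All mice carried LysM-Cre, a Cre recombinase under the promoter of a lysozyme gene that granulocytes use as well as monocytes and macrophages. In the fl/fl group (n = 2 libraries) the interleukin-10 receptor gene IL10R was floxed, so that Cre can excise part of it in those cells, and in the wt/wt group (n = 2 libraries) it was unmodified. Age, sex and treatment are not given in the labels, nor do the labels say whether each library is a different mouse, so that p-values measure the spread between these libraries.

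Scavenger receptors are membrane proteins that bind modified lipoproteins, bacterial surfaces, dead cells and spent plasma proteins and carry them to lysosomes. Class A receptors (SR-A, encoded by Msr1, and MARCO) have a collagen-like stalk, and class B receptors (CD36, SR-B1 and LIMP-2) are hairpins held in the membrane at both ends. Stabilin-1, the haemoglobin receptor CD163 and the mannose receptor MRC1 are large proteins built of repeated extracellular domains. In the liver, Kupffer cells (the resident macrophages) and sinusoidal endothelial cells are the main users of these receptors, and interleukin-10 is known to raise several of them, CD163 among them, in cultured macrophages.

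Il10ra, the ligand-binding chain and the presumed floxed gene, was at 1111 (wt/wt 1), 993 (wt/wt 2), 69.3 (fl/fl 1) and 14.8 CPM (fl/fl 2), a fall of −4.64 on the log2 scale (adjusted p = 0.0193, edgeR). CPM is the count scaled to library size with TMM factors, which correct for differences in RNA composition. The libraries held 17154042 to 26441014 counts. The 12 Kupffer cell markers summed to 913 and 879 CPM for wt/wt against 363 and 362 CPM for fl/fl. Most of that came from Id3 and the complement genes C1qa, C1qb and C1qc, which other cells or macrophages make as well, while Clec4f, Vsig4, Timd4 and Folr2, picked after their values were seen, had 0 to 15 counts in any library. The 10 sinusoidal endothelial markers summed to 274 to 465 CPM, nearly all of it Fcgr2b (255 to 451 CPM), followed by Pecam1 (12.3 to 13.8 CPM), and Stab2 and Lyve1 had 0 to 13 counts. Classical monocyte markers were abundant, such as Ccr2 at 1304 to 1723 CPM, and Adgre1, the gene of the macrophage protein F4/80, was at 150 to 183 CPM. Of 10 neutrophil markers 9 rose, and their sum was 2726 CPM in wt/wt 1, 3286 in wt/wt 2, 36337 in fl/fl 1 and 16086 in fl/fl 2. Library fl/fl 2 stood apart: it had 4298 counts of Xist, the RNA of the inactive X chromosome, against 0 elsewhere, and 1 count over 4 Y-linked genes against 3455 to 6562 elsewhere. Its transcripts were thus those of a female mouse and those of the other libraries male. The fl/fl libraries therefore came from different mice, while for the wt/wt libraries this is not known. Without wt/wt 1 or without wt/wt 2, edgeR called 0 of all tested genes (1576 and 2333 at an unadjusted p under 0.05; DESeq2 called 496 and 784), so that each edgeR call given here rests on both wt/wt libraries.

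Only Msr1 passed the test among the 7 tested receptor genes, and it fell in fl/fl. Stab1 and Mrc1 were lower in both fl/fl libraries without passing, Scarb1 was higher in both without passing, and Scarb2 differed little. Counted over the family, 1 of 7 was lower and 0 of 7 were higher at an adjusted p under 0.05 (edgeR quasi-likelihood test, Benjamini-Hochberg over 13496 genes), where 3.16% of all tested genes were lower and 2.69% higher. At an unadjusted p under 0.05, 3 members were lower and 1 was higher, against 1444 and 1596 of all 13496 tested genes. Both fl/fl libraries lay below both wt/wt libraries for 5 of 7 members and above them for 1, as they did for 26.3% and 28.1% of all tested genes. The median log2 fold change was −1.26 over the 7 members and 0.02 over all tested genes. In RNA from a mixed sort, fewer cells that make a transcript and less of it in each cell cannot be told apart.

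**Figure D1:**
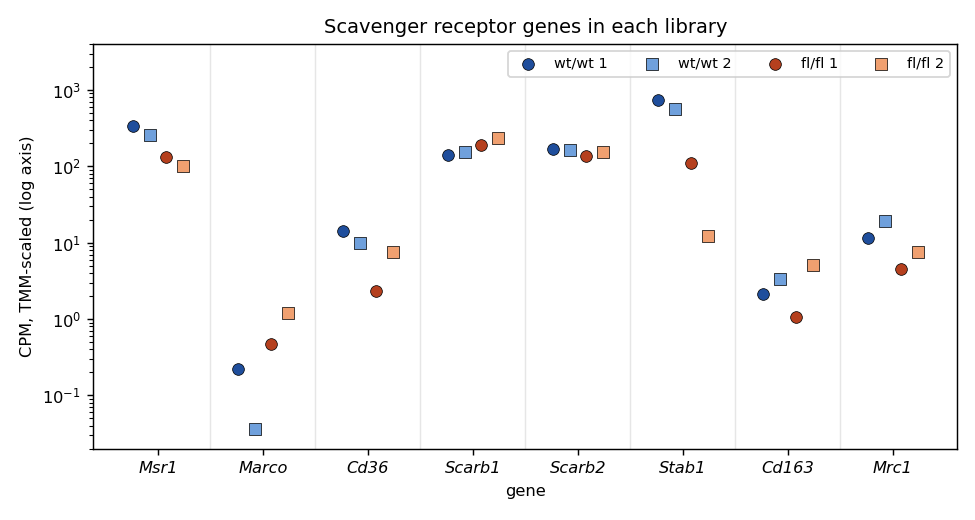
Level of each of the 8 genes in each library, in CPM on TMM-scaled library sizes (log axis); blue marks are wt/wt 1 and 2, orange marks are fl/fl 1 and 2. The fl/fl marks of Msr1, Cd36, Scarb2, Stab1 and Mrc1 lie below both wt/wt marks, those of Scarb1 and Marco lie above them, and Stab1 in fl/fl 2 (12.3 CPM) is far below fl/fl 1 (112 CPM).

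Msr1 (ENSMUSG00000025044; GRCm38 chromosome 8, 39581685 to 39642673, minus strand) encodes SR-A, the trimeric receptor that takes up acetylated and oxidised lipoproteins and bacterial lipids. Its level was 339 CPM (7543 counts) in wt/wt 1, 260 CPM (7070 counts) in wt/wt 2, 133 CPM (2285 counts) in fl/fl 1 and 101 CPM (1767 counts) in fl/fl 2. The groups did not overlap, and the libraries of each group were within 1.32-fold of each other. The fl/fl mean of 117 ± 22.8 CPM (SD, n = 2) was 2.56-fold lower than the wt/wt mean of 299.6 ± 55.4 CPM (SD, n = 2). The log2 fold change was −1.36 ± 0.21 (SE; 95% interval −1.87 to −0.85; adjusted p = 0.0215, edgeR). The edgeR call ended without wt/wt 1 (−1.20, adjusted p = 0.179) and without wt/wt 2 (−1.53, adjusted p = 0.0883), where DESeq2 kept it (adjusted p = 0.0233 and 0.000346). Its adjusted p ran from 5.97e-10 to 0.899 across the alternatives. Gene totals add up the splice forms of SR-A, which were not separated here.

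Marco (ENSMUSG00000026390; chromosome 1, 120474538 to 120505024, minus strand), the other class A receptor, binds unopsonised particles and bacteria and marks a subset of Kupffer cells. It had 5 counts in wt/wt 1, 1 in wt/wt 2, 8 in fl/fl 1 and 21 in fl/fl 2, or 0.22, 0.037, 0.47 and 1.20 CPM, and was too low to be tested. Its pooled counts, 29 in fl/fl and 6 in wt/wt, gave a ratio of 6.88 (exact 95% interval 2.81 to 20.3, which covers counting error only and not the spread between mice). With no filter on low counts its log2 fold change was 2.64 (adjusted p = 0.32, edgeR). Marco was thus scarce in all 4 libraries.

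The class B receptors did not move as a unit. Cd36 (ENSMUSG00000002944; chromosome 5, 17781690 to 17888801, minus strand), which imports long-chain fatty acids and binds oxidised lipoproteins, was at 14.1 CPM in wt/wt 1, 9.95 in wt/wt 2, 2.33 in fl/fl 1 and 7.65 in fl/fl 2. Its fl/fl libraries were both lower but 3.28-fold apart, and the log2 fold change of −1.26 ± 0.54 (SE) did not pass (95% interval −2.54 to 0.0090; adjusted p = 0.226, edgeR). Cd36 was at −0.68 without fl/fl 1 and at −2.35 without fl/fl 2, where it passed (adjusted p = 0.00551; 0.000697 to 0.985 across the alternatives). Markers of hepatocytes, which can carry Cd36 transcripts, were also lowest in fl/fl 1: the 6 markers summed to 55.7, 35.2, 16.0 and 81.8 CPM in the same order of libraries. The part of these transcripts in the Cd36 values was not tested.

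Scarb1 (ENSMUSG00000037936; chromosome 5, 125277087 to 125341094, minus strand) encodes SR-B1, the receptor that exchanges cholesterol with high-density lipoprotein. Both fl/fl libraries, at 188 and 232 CPM, were higher than wt/wt, at 140 and 155 CPM. The fl/fl mean was 1.42-fold higher, and the log2 fold change of 0.51 ± 0.17 (SE; 95% interval 0.096 to 0.92) did not pass (adjusted p = 0.145, edgeR). Scarb2 (ENSMUSG00000029426; chromosome 5, 92441314 to 92506833, minus strand) encodes LIMP-2, a resident of the lysosomal membrane. Its fl/fl libraries, at 138 and 153 CPM, lay just below wt/wt, at 168 and 164 CPM, with a log2 fold change of −0.19 ± 0.15 (SE; adjusted p = 0.537, edgeR). The 95% interval of −0.55 to 0.18 spans no change.

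Stab1 (ENSMUSG00000042286; chromosome 14, 31139013 to 31168641, minus strand) had the largest fold difference of the 7 tested genes. It encodes stabilin-1, a receptor for acetylated lipoprotein and the matrix protein SPARC that is found on alternatively activated macrophages and sinusoidal endothelium. Its level was 743 CPM (16541 counts) in wt/wt 1, 566 CPM (15368 counts) in wt/wt 2, 112 CPM (1921 counts) in fl/fl 1 and 12.3 CPM (215 counts) in fl/fl 2. Both fl/fl libraries lay far below wt/wt, but they were 9.12-fold apart, against 1.31-fold between the wt/wt libraries. The fl/fl mean was 62.1 ± 70.4 CPM (SD, n = 2), against 655 ± 125 CPM (SD, n = 2) for wt/wt. The log2 fold change of −3.40 ± 0.88 (SE; 95% interval −5.49 to −1.31) did not pass (adjusted p = 0.0766, edgeR). It passed without fl/fl 1, at −5.77 (adjusted p = 2.4e-05), and without fl/fl 2, at −2.54 (adjusted p = 0.000355), fits in which the lone fl/fl library is assumed to vary like the wt/wt pair. Limma-voom and library-size scaling also called it (adjusted p = 0.0344 and 0.0421), and DESeq2 did not (adjusted p = 0.0746; 1.2e-104 to 0.768 across the alternatives). The library with more Stab1, fl/fl 1, also had the higher neutrophil marker sum and more Il10ra (69.3 CPM, against 14.8 CPM in fl/fl 2). The part of these differences, or of sex, in the Stab1 values was not tested. Stab2, the endothelial paralogue, was at 0 to 0.52 CPM. A share of 1.09% of the exonic bases of Stab1 overlaps Nt5dc2 on the opposite strand.

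Cd163 (ENSMUSG00000008845; chromosome 6, 124304656 to 124330527, plus strand), the receptor for haptoglobin-haemoglobin complexes, was scarce and overlapped between groups. It was at 2.11 CPM in wt/wt 1, 3.39 in wt/wt 2, 1.05 in fl/fl 1 and 5.08 in fl/fl 2. The fl/fl libraries lay on either side of wt/wt. Fitted with edgeR, the fold difference was 0.15 ± 0.73 on the log2 scale (SE; adjusted p = 0.935), moving to 0.84 when fl/fl 1 was left out and to −1.38 when fl/fl 2 was. It passed under 1 alternative, scaling to all 6 macrophage core genes (1.71, adjusted p = 0.045; 0.045 to 1 across the alternatives), and not without Mertk among them (1.03, adjusted p = 0.256). Scaling to all 6 core genes called 6142 of all 13496 tested genes higher. The 95% interval of Cd163 in the main fit, −1.57 to 1.88, leaves room for a sizeable difference in either direction.

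Mrc1 (ENSMUSG00000026712; chromosome 2, 14229392 to 14332057, plus strand), the mannose receptor CD206, clears glycoproteins with exposed mannose and is a common marker of alternative activation. It was at 11.5 CPM in wt/wt 1, 19.2 in wt/wt 2, 4.54 in fl/fl 1 and 7.48 in fl/fl 2. Both fl/fl libraries were lower, and the libraries of either group were within 1.67-fold of each other. The log2 fold change was −1.36 ± 0.37 (SE; 95% interval −2.25 to −0.46), as large as that of Msr1, and did not pass (adjusted p = 0.0879, edgeR). DESeq2 (adjusted p = 0.0148) and the fit without fl/fl 2 (adjusted p = 0.0221) called Mrc1, whose adjusted p ran from 0.00049 to 0.928 across the alternatives. Its counts, 78 to 522 in a library, were far fewer than the 1767 to 7543 of Msr1.

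The sequence upstream of the RefSeq start (GRCm38.p6) was held for 6 of the 8 genes; Msr1 and Scarb1 had no entry. Of these 6, Stab1 and Mrc1 were lower in both fl/fl libraries at an unadjusted p under 0.05, and their sequences are shown. Maf, whose half-site was searched, also fell in fl/fl, and a link to either gene was not tested. The 250 bases before the start were searched on both strands for the MAF half-site TGCTGA, the PU.1 core GAGGAA, the AP-1 site TGANTCA and the STAT site TTCNNNGAA, whose matches overlapped nowhere in these windows; capitals mark every match, on either strand. They are Stab1 at chr14:31168642-31168891 (minus strand) and Mrc1 at chr2:14229164-14229413 (plus strand), printed 5′ to 3′ along the gene; the last bases of the Mrc1 window lie in its first exon as GENCODE M21 places it.
Stab1: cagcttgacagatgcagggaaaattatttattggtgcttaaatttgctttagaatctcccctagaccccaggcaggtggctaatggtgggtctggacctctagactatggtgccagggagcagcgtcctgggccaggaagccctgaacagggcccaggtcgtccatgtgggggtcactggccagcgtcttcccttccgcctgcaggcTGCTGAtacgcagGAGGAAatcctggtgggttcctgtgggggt
Mrc1: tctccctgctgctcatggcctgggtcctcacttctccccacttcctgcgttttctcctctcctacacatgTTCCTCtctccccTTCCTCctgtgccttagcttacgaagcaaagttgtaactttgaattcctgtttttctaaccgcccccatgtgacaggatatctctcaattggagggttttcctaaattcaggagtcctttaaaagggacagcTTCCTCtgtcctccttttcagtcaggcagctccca

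Stab1 had 1 MAF half-site, starting 43 bases before the gene start, and 1 PU.1 core 30 bases before it. Mrc1 had 3 PU.1 cores, starting 180, 167 and 35 bases before the gene start and all on the opposite strand, and 0 MAF half-sites. Scarb2 had 1 MAF half-site on the opposite strand, 167 bases before its RefSeq start. Cd36 had 1 MAF half-site, Marco had 1 PU.1 core, and Cd163 had 0 matches. The windows of Scarb2 (chr5:92505658-92505907) and Cd36 (chr5:17835897-17836146) lie inside the gene spans that GENCODE M21 gives. Among all 32851 promoter windows of the same length, 16.1% held the MAF half-site, 23.3% the PU.1 core, 6.75% the AP-1 site and 7.02% the STAT site, and none of the 6 receptor windows held either of the last 2. Letters that match are a description of the window and show no binding.

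**Figure D2:**
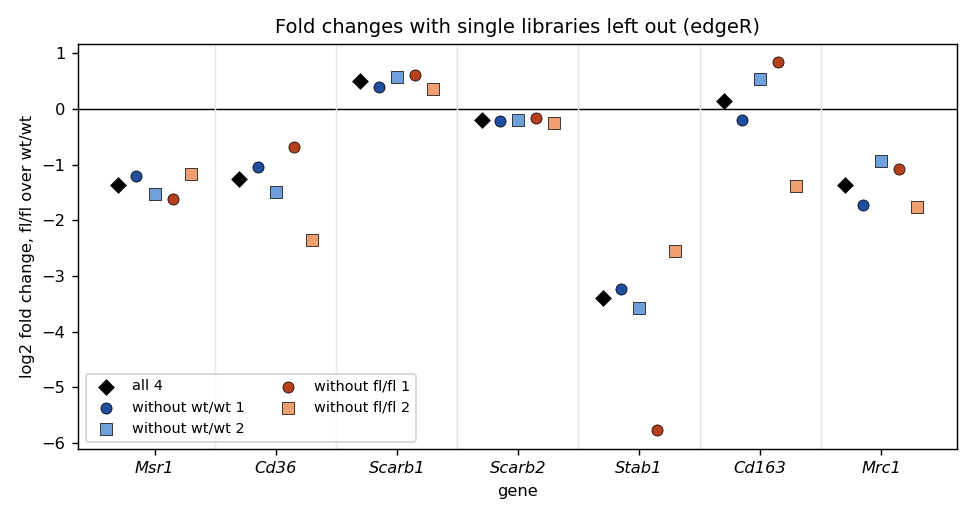
Log2 fold change, fl/fl over wt/wt, of the 7 tested genes with all 4 libraries (diamonds) and with each library left out in turn, by the edgeR fit. Msr1, Cd36, Scarb2, Stab1 and Mrc1 stay below 0 and Scarb1 above 0, Cd163 changes sign, and Stab1 ranges from −5.77 to −2.54.

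Compared per length, Stab1 was the most abundant receptor in wt/wt and Scarb1 in fl/fl. With counts divided by the merged exon length of each gene, Stab1 led in both wt/wt libraries, at 72.2 and 55.0 CPM per kb, followed by Msr1 at 53.4 and 41.1, Scarb2 at 26.7 and 26.1 and Scarb1 at 16.5 and 18.2 CPM per kb. These 4 neighbours did not overlap in wt/wt, whereas Cd36 (3.92 and 2.77) and Mrc1 (1.81 and 3.02) did, and Cd163 and Marco were below 1 CPM per kb. In fl/fl, Scarb1 was the highest, at 22.1 and 27.3 CPM per kb, with Scarb2 at 22.0 and 24.4 overlapping it, then Msr1 at a mean of 18.4 ± 3.59 CPM per kb (SD, n = 2), below both. Stab1, at 10.9 and 1.19 CPM per kb in fl/fl, overlapped Cd36 (0.65 and 2.13) there. Summed over the 8 genes, wt/wt held 161 ± 20.0 CPM per kb (SD, n = 2), against 75.7 ± 2.89 CPM per kb (SD, n = 2) for fl/fl. Stab1 supplied 41.2% and 37.5% of that sum for wt/wt against 14.0% and 1.62% for fl/fl, while Scarb1 supplied 9.43% and 12.4% for wt/wt against 28.4% and 37.1% for fl/fl. With the longest annotated transcript as the length, Msr1 and Stab1 were level in wt/wt (93.2 and 71.6 against 92.9 and 70.8 CPM per kb), Scarb1 stood above Scarb2 in all 4 libraries, and Scarb1 was again the highest in both fl/fl libraries. The order of neighbouring genes thus depends on which transcript is assumed, and these values carry no test.

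**Figure D3:**
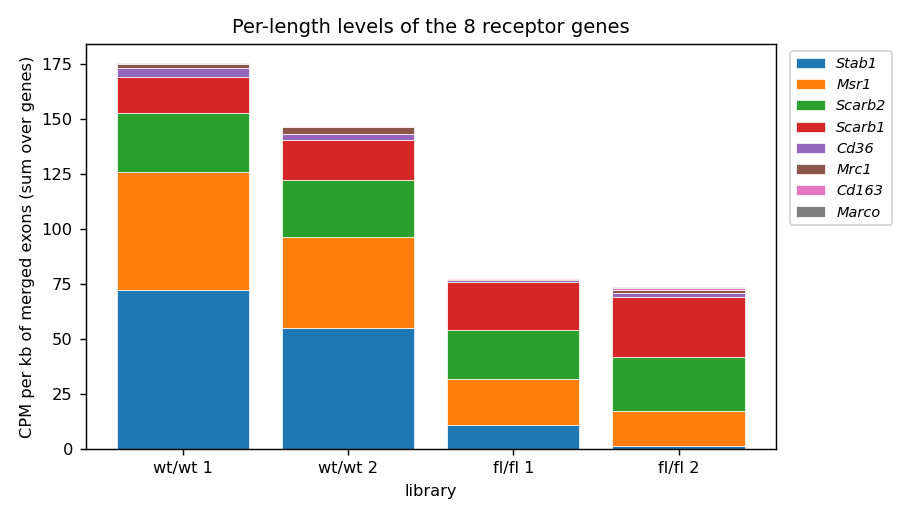
Stacked bars of CPM per kb of merged exons for the 8 genes in each library, summed over genes. The sum is 175 and 147 CPM per kb for wt/wt against 77.8 and 73.7 for fl/fl, and the Stab1 and Msr1 segments are smaller in fl/fl.

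Transcripts that mark macrophages were lower in fl/fl as well. All 6 genes of a macrophage core list (Adgre1, Csf1r, Fcgr1, Mertk and Cd68 among them) had both fl/fl libraries below wt/wt, at a median log2 fold change of −0.87, and 2 of them fell, among them Fcgr1, the high-affinity IgG receptor (−1.05, adjusted p = 0.0362). The list summed to 4389 and 4039 CPM in wt/wt and 2075 and 2166 CPM in fl/fl. Set against the mean log2 CPM of the core genes other than Mertk, which had 4 counts in fl/fl 2, the log2 level of Msr1 was −0.84 and −1.13 for wt/wt and −1.34 and −1.63 for fl/fl. Stab1 was at 0.30 and −0.01 for wt/wt against −1.59 and −4.67 for fl/fl on this scale, and Scarb1 at −2.11 and −1.88 for wt/wt against −0.84 and −0.43 for fl/fl. Mrc1, Cd36 and Cd163 overlapped between groups when set against the core genes. With each library scaled to all 6 core genes, the median of all genes moved to 1.35, Msr1 was at −0.08 (adjusted p = 0.899) and Stab1 at −2.45 (adjusted p = 0.000997). Without Mertk, the median of all genes was 0.88, Msr1 was at −0.50 (adjusted p = 0.0577) and Stab1 at −2.58 (adjusted p = 0.0226, all by edgeR). These scalings called 6142 and 7393 of all 13496 tested genes higher, Scarb1 among them under both (1.89 and 1.37, adjusted p = 0.0111 and 0.00252, edgeR). Scarb2 changed sign under both (1.17 and 0.67, adjusted p = 0.0718 and 0.0137), whereas Cd36 and Mrc1 changed sign with all 6 core genes (0.26 and 0.063) and not without Mertk (−0.37 and −0.50). The core genes were themselves lower, and how far they count cells was not tested.

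**Figure D4:**
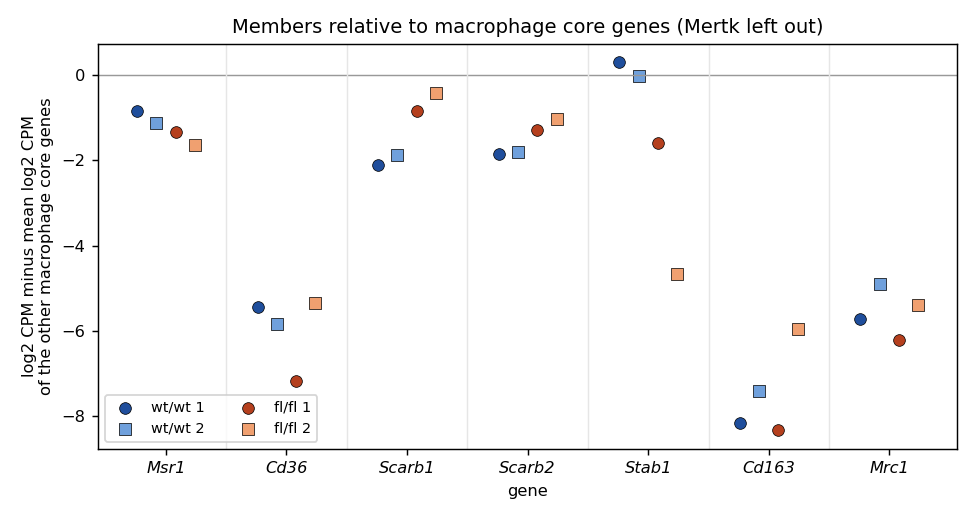
Log2 CPM of each tested gene minus the mean log2 CPM of the macrophage core genes other than Mertk and itself, in each library. The fl/fl marks lie below wt/wt for Msr1 and Stab1, above it for Scarb1 and Scarb2, and overlap it for Cd36, Cd163 and Mrc1.

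Other scavenger receptors were measured from a list of 19, of which 12 were tested. Of these, 1 fell, 0 rose and 11 did not pass, with a median log2 fold change of −0.12. Over all tested genes 3.16% were lower and 2.69% higher. The gene that fell was Cxcl16, which encodes a membrane-bound chemokine that also takes up oxidised lipoprotein: 230 and 134 CPM in wt/wt against 31.1 and 34.8 CPM in fl/fl, with a log2 fold change of −2.46 ± 0.28 (SE; adjusted p = 0.012, edgeR). Olr1, the oxidised lipoprotein receptor LOX-1, was at −1.26 (adjusted p = 0.0556), and Cd68, the endosomal macrosialin, at −0.66 (adjusted p = 0.0736). Lrp1, the most abundant of the list at 1127 to 1912 CPM, was at −0.53 (adjusted p = 0.146).

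**Figure D5:**
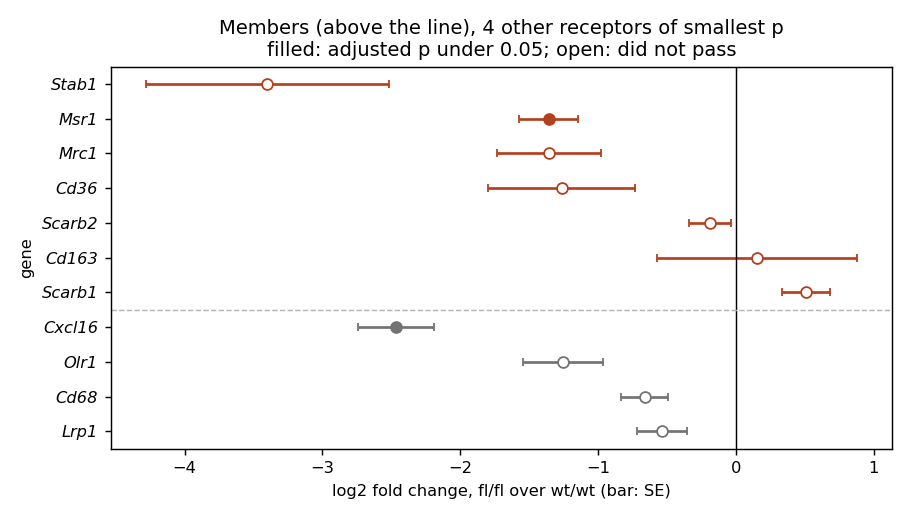
Log2 fold change with its SE for the 7 tested members (above the dashed line) and the 4 other scavenger receptors of smallest p; filled marks passed an adjusted p of 0.05. Msr1 and Cxcl16 are the filled marks, and Stab1 has the lowest value with the widest bar.

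Genes that handle the cargo of these receptors were read from lists too, where 3.16% of all tested genes were lower and 2.69% higher. Of 15 tested genes of lipid uptake and cholesterol handling, 2 fell and 13 did not pass (median −0.38): Abca1, the cholesterol exporter (−2.22, adjusted p = 0.00879), and Apoe, the lipid carrier (−1.53, adjusted p = 0.0306), while Npc1, which moves cholesterol out of lysosomes, was at −0.93 (adjusted p = 0.0557). Of 12 genes of haemoglobin and haem clearance, 1 rose and 1 fell (median 0.06). Hp, haptoglobin, the ligand partner of CD163, rose to 2478 and 1859 CPM in fl/fl from 426 and 601 CPM in wt/wt (2.08, adjusted p = 0.0132). Hmox1, which degrades haem, fell (−0.85, adjusted p = 0.0306), and Slc40a1, the iron exporter, was at 1.58 (adjusted p = 0.164). Hp is also made by granulocytes, whose markers were higher in the same libraries; their part in the Hp value was not tested.

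Partners and regulators of the receptors were read from lists of 16 and 18 tested genes. The shares over all tested genes were again 3.16% lower and 2.69% higher. Among partners and signalling genes 1 fell, 0 rose and 15 did not pass (median −0.07). Src, a kinase that acts downstream of several scavenger receptors, fell from 21.3 and 20.2 CPM to 1.28 and 0.23 CPM (−4.77 ± 0.60, SE; adjusted p = 0.0141), from 22 and 4 counts in fl/fl. Tlr6, a partner of CD36 in sensing oxidised lipids, was at 0.69 (adjusted p = 0.102). The related kinases Lyn and Fyn were at 0.06 and −0.74 (adjusted p = 0.875 and 0.103). Among transcriptional regulators, 3 fell, 0 rose and 15 did not pass (median −0.12). Among those that fell were Maf, a factor of macrophage differentiation (−1.37, adjusted p = 0.0159), and Cebpa, a factor of myeloid differentiation (−0.71, adjusted p = 0.0443). Spi1, the gene of PU.1, on which Msr1 transcription is known to depend, had 561 and 599.8 CPM (wt/wt) and 813 and 739 CPM (fl/fl), a log2 fold change of 0.42 (adjusted p = 0.19).

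Markers of other cells in the sort moved too, where 3.16% of all tested genes were lower and 2.69% higher. Of 8 tested Kupffer cell markers 3 fell, 0 rose and 5 did not pass. Those that fell were C1qa, C1qb and C1qc, the complement genes that many macrophages express. Their log2 fold changes were −3.11, −2.83 and −2.87 (adjusted p = 0.0231, 0.0223 and 0.0232, edgeR). Cdh5 (−1.74) was below 0 without passing, whereas Slc40a1 (1.58), Cd5l (0.997), Clec1b (0.73) and Id3 (0.43) were above 0 without passing. C1qb had 341.8 and 332 CPM in the wt/wt libraries, 70.5 CPM in fl/fl 1 and 24.4 CPM in fl/fl 2, so that fl/fl 2 was the lowest library for it and for Stab1. Of 7 markers of granulocyte precursors 6 rose (median 5.15), with sums of 49.1 and 42.03 CPM for wt/wt against 1526 and 481 CPM for fl/fl. Of 8 classical monocyte markers 1 rose and 1 fell, the latter Fn1, the fibronectin gene (−1.48, adjusted p = 0.0212). Of 7 tested sinusoidal endothelial markers, Fcgr2b, an IgG receptor that macrophages also make, fell (−0.79, adjusted p = 0.0357). Pf4 fell among 2 tested platelet markers (−2.30, adjusted p = 0.0424), and Nkg7 rose among 3 tested lymphocyte markers (3.67, adjusted p = 0.018). None of 5 hepatocyte, 5 dendritic cell and 4 erythroid markers passed, at median log2 fold changes of 0.08, −0.02 and 1.70. All 4 erythroid markers had both fl/fl libraries above wt/wt, as 28.1% of all tested genes did. The part of any of these cells in the receptor values was not tested.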

How the data were processed

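Poly(A) RNA of sorted liver myeloid cells was sequenced in 4 libraries, 2 of each genotype. The authors deposited raw counts per Ensembl gene, whole numbers in 1 table of 55487 genes; the build GRCm38 and the tools STAR 2.5.0, Trimmomatic 0.33 and FastQC 0.11.5 are named in the submitters' processing notes. Not given in the sources used here are the tool that counted reads, its strand setting and its annotation. GENCODE M21 gave symbols for 55227 identifiers, positions and lengths. Counts were filtered with filterByExpr (minimum count 10), TMM-scaled and tested with the edgeR 4.0.16 quasi-likelihood F test in R 4.3.3 without covariates, adjusted by Benjamini-Hochberg over 13496 genes at a threshold of 0.05; all p-values are two-sided. Fold changes use a prior count of 0.125, the SE divides the size of the log2 change by the root of its F statistic, and 95% intervals use the t distribution on the total degrees of freedom. An exact permutation test cannot go below p = 0.333 with 2 against 2. The steps were tested on simulated data. Alternatives were other scalings, filters and prior counts, DESeq2 1.42.0, limma-voom (limma 3.58.1), the replicate number as a block and leaving out each library; scaling to the macrophage core genes without Mertk, and the longest transcript as gene length, were added after the data were seen. The 8 genes and all lists were chosen with earlier results of these data known. Named are the 8 genes, Il10ra, up to 3 tested genes of smallest p per list (for lists of other cell types also the 2 most expressed), and the 2 genes of at least 10 CPM with the pattern nearest to a member past the threshold; others (Lrp1, Lyn, Spi1, Stab2, Lyve1, Ccr2, Adgre1, Clec4f, Vsig4, Timd4, Folr2) were named after their values were seen, and some genes of the lists are not reported here. At this depth 3 counts, the limit that a count of 0 allows, are 0.111 to 0.175 CPM.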

Additional observations from a re-analysis of the deposited data

How the results depend on the processing

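Msr1 was lower in fl/fl under all 19 alternatives and passed in 15. It no longer passed when scaled to the macrophage core genes (−0.083) or to those without Mertk (−0.50). Nor did it pass with edgeR when either wt/wt library was left out, where DESeq2 kept the call. With edgeR and 1 library left out, Msr1 ran from −1.61 to −1.16. Against 1 receptor gene called lower, library-size scaling, DESeq2 and limma-voom called 2 and no filter on low counts called 4. With 1 library left out, 0 to 4 were called; DESeq2 called 2 without fl/fl 1 and 4 without fl/fl 2. Both core scalings called 2 receptor genes higher, against 0, where 6142 and 7393 of all 13496 tested genes were called higher. They were Scarb1 and Cd163 (1.71) with all 6 core genes, and Scarb1 and Scarb2 without Mertk. Signs reversed under core scaling for Cd36 (0.26), Mrc1 (0.063) and Scarb2 (1.17, and 0.67 without Mertk). Cd163 reversed with limma-voom (−0.22) and, with DESeq2, without wt/wt 1 (−0.17) and without fl/fl 2 (−1.38); with edgeR and 1 library left out it ran from −1.38 to 0.84. Stab1 was lower under all 19 and passed in 10. Core scaling moved the median of all genes, as given above; for the other changes the cause was not tested.

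Over all genes, 790 were called (427 lower, 363 higher), 2088 with no filter (1071, 1017), 1618 with DESeq2 (834, 784), 6262 with core scaling (120, 6142) and 7687 without Mertk, where 7393 were higher. Without fl/fl 2 there were 1477 and without fl/fl 1 977.

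Samples of the 2 genotypes share replicate numbers. The deviations of the libraries numbered 1 from their group means correlated at 0.02 over all tested genes. With 2 libraries per group, 1 such value cannot tell whether equal numbers share a preparation, which was not tested. With the replicate number as a block, 3 receptor genes were called lower, Stab1 (−4.09) and Mrc1 (−1.35) besides Msr1 (−1.36), Cd163 was at −0.15, and 1215 genes were called in all, 602 of them higher.

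Levels per kb with the longest transcript as the length differ from those with merged exons by construction. Marco, with 1 to 21 counts in a library, did not pass the filter on low counts.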

Other observations

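The genes whose pattern over the 4 libraries lay nearest to that of Msr1, among 8083 candidate genes of at least 10 CPM, were Nrip1 and Mylip, at root mean square distances of 0.06 and 0.07 in centred log2 CPM. Nrip1, a corepressor of nuclear receptors, fell from 61.5 and 50.2 CPM to 22.8 and 18.4 CPM (−1.44 on the log2 scale, adjusted p = 0.0182, edgeR). Mylip, the ubiquitin ligase known as IDOL, fell from 42.1 and 30.4 CPM to 17.7 and 12.6 CPM (−1.26, adjusted p = 0.0413, edgeR). With 4 libraries such distances describe a shape and carry no test.

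Within the family, the 2 fl/fl libraries did not deviate in 1 direction. Stab1 and Msr1 were 9.12 and 1.32 times as high in fl/fl 1 as in fl/fl 2, whereas Cd163, Cd36, Marco, Mrc1, Scarb1 and Scarb2 were lower. In that order, the levels of the latter in fl/fl 1 were 0.21, 0.30, 0.39, 0.61, 0.81 and 0.90 times those in fl/fl 2. Haemoglobin and hepatocyte transcripts were higher in fl/fl 2 as well: Hba-a1 held 15.4 and 41.5 CPM and Alb 9.55 and 60.7 CPM in fl/fl 1 and 2. The Xist counts differed between these libraries too, and the part of sex or of these transcripts in the receptor values was not tested.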
